A study of Mus musculus with 12 samples.

Results

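Amino acids enter muscle stem cells through carriers of the plasma membrane, and 9 genes that encode such carriers or their subunits were followed here: Slc1a3, Slc1a4, Slc1a5, Slc3a2, Slc7a1, Slc7a5, Slc38a1, Slc38a2 and Slc38a3. They are 9 of 55385 genes in each of 2 count tables, one for female and one for male animals, and all 9 had counts in every library. The genes were picked by name, partly because Slc1a3 and Slc38a3 were lower in libraries labelled KO for Keap1. For that pair the KO and Hetz values are therefore a description without a test, while the other 7 genes and the comparison of the sexes were tested. RNA was taken from satellite cells of the hindlimb muscle of C57BL/6J mice, which were frozen in liquid nitrogen right after isolation, and the Smart-Seq2 protocol gave the cDNA.

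The 4 groups were female KO (animals KO166, KO178 and KO188), female Hetz (Hetz164, Hetz165 and Hetz181), male KO (KO240, KO247 and KO255) and male Hetz (Hetz204, Hetz245 and Hetz249), with 3 animals each. The genotype word given for Hetz in the labels was read as heterozygous, so the Hetz animals are taken to carry a Keap1 mutation too. A Cre driver, the deleted exon and the age of the animals are not given in the sources used here. No wild-type group was analysed here. Animal numbers are unique, so nothing pairs samples across groups. The p-values set the difference between groups against the variation between these animals, estimated with help from the other genes tested.

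Transporters of these families divide the work by substrate and by mechanism. Sodium-coupled SLC38 carriers load small neutral amino acids such as glutamine and alanine into the cell, and the SLC1 exchangers and the heteromeric SLC7 carriers then trade them for others. The heteromeric carriers consist of a glycoprotein heavy chain, encoded by Slc3a2, and a light chain of the SLC7 family that does the transport. Cystine taken up by one of them feeds glutathione synthesis, which depends on NRF2, the transcription factor that KEAP1 marks for degradation.

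The libraries held 13042039 to 19273245 counts over 19833 to 22602 detected genes. Keap1 was measured at 11.9 ± 0.922 CPM (counts scaled to library size) in female KO, 8.17 ± 1.21 in female Hetz, 7.29 ± 0.797 in male KO and 7.79 ± 2.36 in male Hetz animals (SD, n = 3 each). Neither sex passed between KO and Hetz, at a log2 fold change of 0.54 in females (adjusted p = 0.186) and -0.09 in males (adjusted p = 0.936), and a count over all exons of a gene does not check a deletion within it. The NRF2 target Nqo1 was 20.8-fold higher in female KO than in female Hetz animals (adjusted p = 2.58e-07) and 9.63-fold higher in male KO than in male Hetz animals (adjusted p = 1.15e-05), by edgeR's quasi-likelihood test with Benjamini-Hochberg adjustment, which gave all adjusted p-values below. The share of counts from mitochondrial rRNA was 0.733 to 1.03% in female KO, 0.302 to 0.507% in female Hetz, 0.226 to 0.407% in male KO and 0.409 to 0.601% in male Hetz animals, and its part in the female values was not tested. Markers of satellite cells were present in every library, with Myf5 at a mean of 1032 CPM in female KO, 1387 in female Hetz, 1669 in male KO and 1349 in male Hetz animals. Summed markers of satellite cells reached 9460 to 11969 CPM in female KO, 13522 to 14564 in female Hetz, 19108 to 20546 in male KO and 17655 to 20794 in male Hetz animals. These sums were separate between KO and Hetz in females and overlapped in males. Those of fibro-adipogenic progenitors were 4484 to 5233 CPM in female KO, 4742 to 7286 in female Hetz, 3863 to 4578 in male KO and 2950 to 4620 in male Hetz animals. The part of either in the transporter values was not tested. In bulk samples such as these, fewer cells of a type and less RNA per cell cannot be told apart.

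The promoters of 5 of the 9 genes were found in the RefSeq promoter table (GRCm38.p6), each as 250 bases before to 50 bases after a transcript start. They were searched on both strands for a core of the antioxidant response element that NRF2 binds, TGACNNNGC, and for the C/EBP-ATF response element that ATF4 binds, TGATGNAA, and the search found no place where these overlapped. The windows of Slc1a4, Slc38a2 and Slc7a1 are shown because they hold a match, given in capitals, and that of Slc1a3 because it belongs to one of the 2 lowest genes.
Slc1a4, chr11:20332664-20332963, minus strand: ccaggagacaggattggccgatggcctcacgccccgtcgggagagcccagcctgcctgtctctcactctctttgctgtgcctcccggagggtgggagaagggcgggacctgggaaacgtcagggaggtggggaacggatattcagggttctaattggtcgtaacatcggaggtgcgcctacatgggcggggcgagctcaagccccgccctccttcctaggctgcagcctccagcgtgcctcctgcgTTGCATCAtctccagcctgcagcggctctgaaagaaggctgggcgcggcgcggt
Slc38a2, chr15:96699679-96699978, minus strand: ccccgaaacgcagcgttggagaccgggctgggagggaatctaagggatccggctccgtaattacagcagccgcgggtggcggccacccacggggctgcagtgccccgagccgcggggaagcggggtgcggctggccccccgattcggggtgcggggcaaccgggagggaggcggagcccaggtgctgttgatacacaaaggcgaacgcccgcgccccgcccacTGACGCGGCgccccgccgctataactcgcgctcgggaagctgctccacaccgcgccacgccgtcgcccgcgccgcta
Slc7a1, chr5:148399855-148400154, minus strand: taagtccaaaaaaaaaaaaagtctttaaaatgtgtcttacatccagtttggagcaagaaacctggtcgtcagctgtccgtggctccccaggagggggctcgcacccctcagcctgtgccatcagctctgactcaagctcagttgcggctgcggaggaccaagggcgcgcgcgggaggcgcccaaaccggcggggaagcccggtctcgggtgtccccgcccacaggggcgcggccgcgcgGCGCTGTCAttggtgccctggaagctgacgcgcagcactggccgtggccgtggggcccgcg
Slc1a3, chr15:8710758-8711057, minus strand: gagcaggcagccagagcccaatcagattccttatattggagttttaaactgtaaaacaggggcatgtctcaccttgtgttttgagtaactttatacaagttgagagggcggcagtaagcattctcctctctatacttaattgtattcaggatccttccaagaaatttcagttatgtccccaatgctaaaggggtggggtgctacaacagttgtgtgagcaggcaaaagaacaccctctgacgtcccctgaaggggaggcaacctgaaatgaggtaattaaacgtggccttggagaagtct

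In the Slc1a4 window the reverse complement of the C/EBP-ATF element, TTGCATCA, ran across the start, from position -4 to position 4. The Slc38a2 window held TGACGCGGC from position -27 to position -19, and the Slc7a1 window the reverse complement GCGCTGTCA from position -11 to position -3. Such matches are common: 12.4% of 32851 promoter windows of the same length held the antioxidant core and 3.97% held the C/EBP-ATF element. The windows of Slc1a3 and Slc3a2 and the other window of Slc7a1 held neither string of letters. A match is a description of these letters and shows no binding.

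Levels between genes were compared per kilobase of exon, since the genes differ in exon length. That length covers all annotated exons of a gene, 17236 bases for Slc38a1, so ranks and shares per kilobase depend on it. In CPM Slc38a1 was above Slc1a4 in female KO animals, at a mean of 133.0 against 99.5. Slc3a2, the heavy chain CD98, stood first in all 4 groups, at 473.0 CPM per kilobase in female KO, 451.1 in female Hetz, 731.0 in male KO and 616.2 in male Hetz animals. It made up 62.2% of the summed level of the 9 genes in female KO, 63.7% in female Hetz, 73.0% in male KO and 67.6% in male Hetz animals. Slc38a2, the sodium-coupled neutral carrier SNAT2, came second at 104.2 to 137.5 CPM per kilobase over the group means, and the neutral exchanger Slc1a5 (ASCT2) next at 64.5 to 98.8.

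The order below Slc1a5 changed between groups in places. Slc7a1, Slc1a4 and Slc7a5 took ranks 4 to 6 in an order that changed between groups, with group means of 14.7 to 29.5 CPM per kilobase. The library ranges of Slc38a2 and Slc1a5 overlapped in both Hetz groups and were separate in both KO groups. Slc38a1 ranked 7 in every group, at 7.72 CPM per kilobase in female KO, 8.4 in female Hetz, 9.79 in male KO and 11.8 in male Hetz animals. Slc38a3 and Slc1a3 took the last 2 ranks, in an order that was reversed in male KO animals, between 0.139 and 1.37 CPM per kilobase, and their library ranges overlapped each other in every group.

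**Figure D1:**
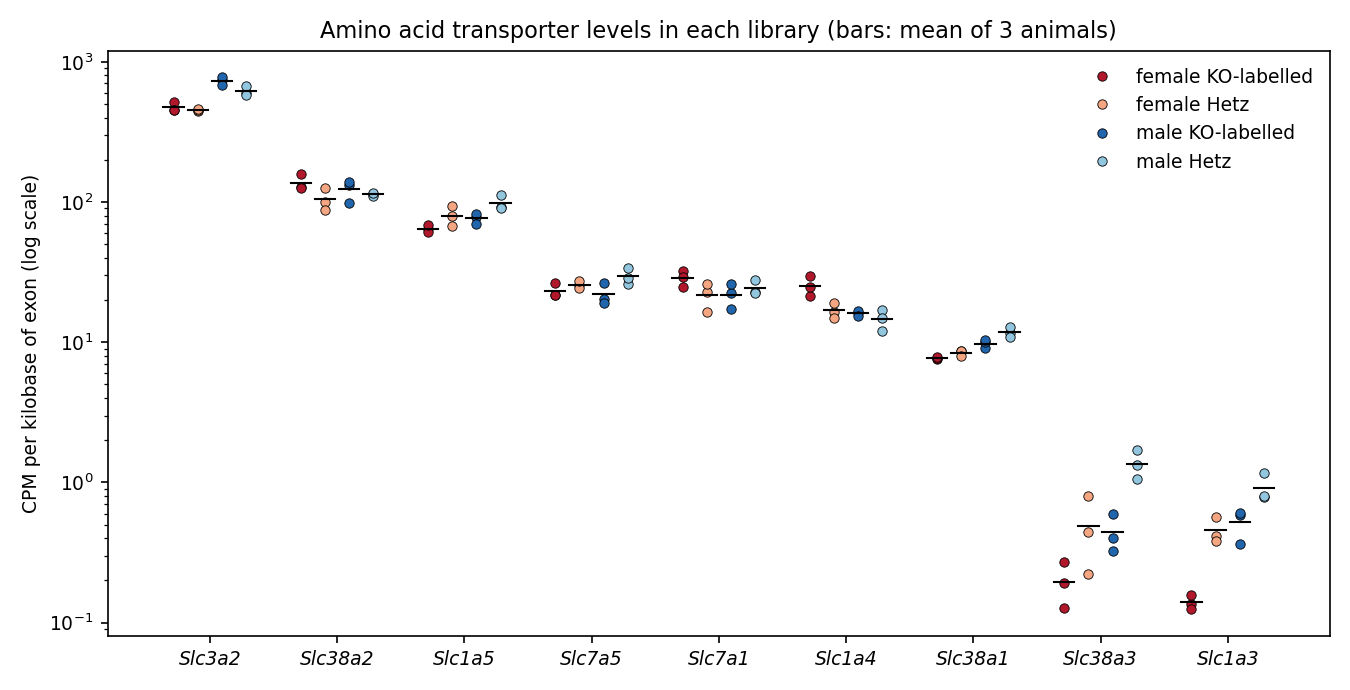
Level of each of the 9 transporter genes in each of the 12 libraries, in CPM per kilobase of exon on a log axis, by group; each point is 1 animal. Slc3a2 stands highest and Slc1a3 and Slc38a3 lowest in every group, with Slc38a1 the next lowest.

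Slc1a3 encodes GLAST, a high-affinity glutamate and aspartate carrier best known from astrocytes and other glia. It lies on chromosome 15 from 8634124 to 8710764, minus strand (GRCm38, ENSMUSG00000005360). It was at 1.15, 1.07 and 1.35 CPM in female KO animals, against 3.52, 4.88 and 3.28 CPM in female Hetz animals. In males it was at 3.12, 4.98 and 5.18 CPM in KO, against 6.72, 6.86 and 9.99 CPM in Hetz animals.

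Every KO library was lower than every Hetz library of the same sex, and female Hetz and male KO animals overlapped. The log2 difference was -1.71 in females (SE 0.31) and -0.83 in males (SE 0.268), and the average over both sexes was -1.27. The female difference minus the male one was -0.88. These values rest on 18 to 176 counts per library.

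Slc38a3, which encodes SNAT3, a sodium-coupled carrier of glutamine, histidine and asparagine known from liver, kidney and astrocytes, behaved alike in direction and was more variable. It lies on chromosome 9 from 107650634 to 107669530, minus strand (ENSMUSG00000010064). It was at 0.67, 1.43 and 1.01 CPM in female KO animals, against 1.17, 4.2 and 2.33 CPM in female Hetz animals. Male libraries had it at 3.12, 2.11 and 1.73 CPM in KO, against 5.53, 8.99 and 7.09 CPM in Hetz animals.

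The female groups overlapped through Hetz164, and the male groups did not. The log2 difference was -1.33 in females (SE 0.474) and -1.64 in males (SE 0.296), with an average of -1.48. Without single libraries the female value ranged from -1.68 to -0.76, so 1 animal can move it a good deal. Slc38a3 had 14 to 160 counts per library, and its coefficient of variation within a group ran from 24.0 to 59.5%.

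Because glia are a known source of Slc1a3, the markers of Schwann and other glial cells are given beside it. Their summed level was 49.9 to 56.2 CPM in female KO, 66.8 to 95.8 in female Hetz, 80.5 to 109.9 in male KO and 91.5 to 111.5 in male Hetz animals. The female groups did not overlap and the male groups did, and none of the 12 markers was at 0 in every library of a group. The glial transcription factor Sox10 averaged 0.662 CPM in female KO, 0.544 in female Hetz, 1.53 in male KO and 1.08 in male Hetz animals. The part of these cells in the Slc1a3 values was not tested. Leukocyte and macrophage markers also differed in females, at 41.3 to 67.7 CPM in KO against 109.2 to 154.6 CPM in Hetz animals, and overlapped in males, at 65.2 to 102.1 against 37.0 to 121.2 CPM.

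The other 7 genes, for which the choice named no response, did not pass an adjusted p of 0.05 between KO and Hetz animals in either sex. All 7 passed the filter on low counts. In females 0 of 7 passed, while 2.27% of all 14036 genes tested did, and in males 0 of 7 passed, while 0.861% of 13361 genes did. At an unadjusted p under 0.05 there were 3 of 7 in females (background 17.9%) and 2 of 7 in males (background 12.4%). DESeq2 called 1 in females, Slc1a4, and 0 in males. The median log2 difference of the 7 was 0.07 in females and -0.15 in males, against 0.00 and 0.01 over all genes tested.

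**Figure D2:**
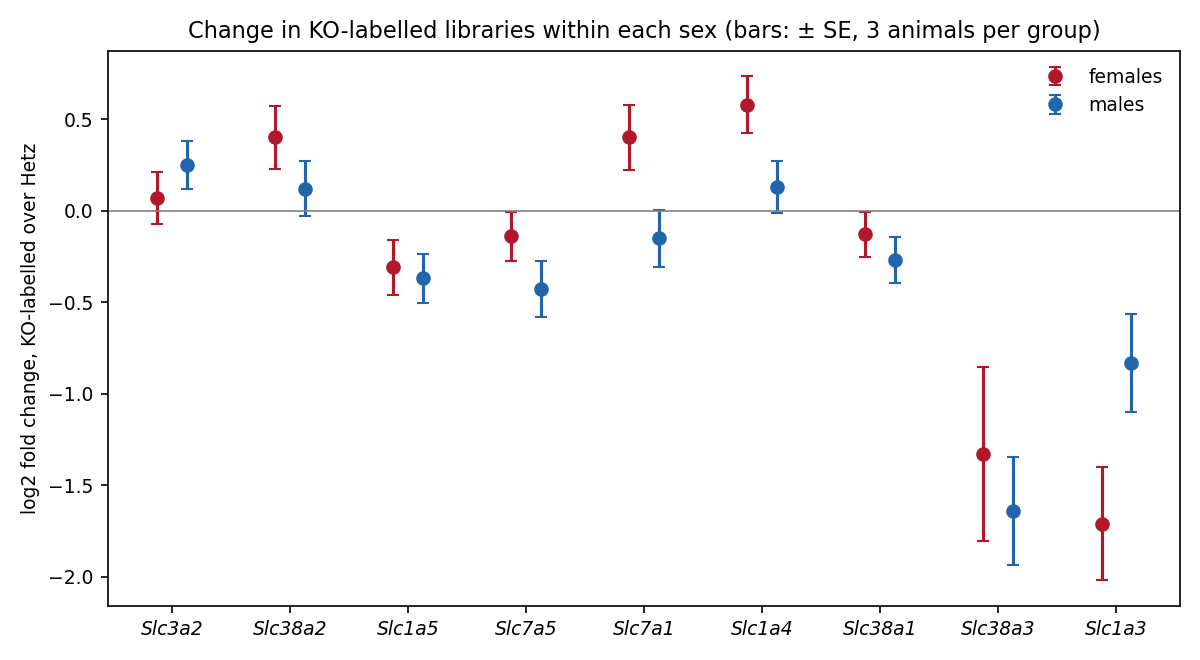
Log2 fold change of each of the 9 genes in KO against Hetz animals, in females and in males, from edgeR; points are estimates and bars are standard errors. Slc1a3 and Slc38a3, which were chosen on this comparison, lie lowest, and the other 7 lie between -0.43 and 0.58.

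The largest positive value among the 7 was that of Slc1a4, the neutral exchanger ASCT1 of serine, alanine and cysteine (chromosome 11, 20302180 to 20332713, minus strand). It was at 116.1, 84.6 and 97.8 CPM in female KO animals, against 64.7, 75.2 and 59.1 CPM in female Hetz animals. In males the gene was at 63.3, 65.1 and 60.8 CPM in KO, against 47.6, 66.9 and 58.3 CPM in Hetz animals. Female KO libraries all lay above female Hetz libraries, and the male groups overlapped.

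The log2 fold change of Slc1a4 in females was 0.58 (95% interval 0.24 to 0.92, adjusted p = 0.0778), higher in 3 of 3 KO animals than in any Hetz animal. The value passed the threshold under 4 other settings, namely DESeq2 (adjusted p = 0.0241), no filter on low counts (0.0123), a fit of all 12 libraries (0.0409) and without Hetz165 (0.0185). In males the change was 0.13 (-0.18 to 0.44, adjusted p = 0.781). The female minus the male change was 0.46 (0.01 to 0.91) with an adjusted p of 0.398.

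Slc1a5, the exchanger ASCT2 that carries glutamine (chromosome 7, 16781340 to 16798274, plus strand), pointed the other way in both sexes. It was at 268.2, 255.1 and 284.7 CPM in female KO animals, against 388.1, 279.6 and 329.9 CPM in female Hetz animals. In males it was at 325.2, 344.3 and 288.4 CPM in KO, against 469.6, 387.1 and 380.1 CPM in Hetz animals. The male groups were separate and the female groups overlapped through Hetz165.

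Slc1a5 had a log2 fold change of -0.31 in females (-0.63 to 0.01, adjusted p = 0.304) and of -0.37 in males (-0.65 to -0.08, adjusted p = 0.275). Averaged over both sexes it was -0.34 (-0.55 to -0.13, adjusted p = 0.0769), beside 0.36 (0.13 to 0.58, adjusted p = 0.0808) for Slc1a4. Neither of the SLC1 exchangers passed in this average of 12 libraries, in which 0 of the 7 genes passed, 5 had an unadjusted p under 0.05 (background 17.0%) and 3.41% of 14772 genes passed. Both passed in the average under DESeq2, at adjusted p = 0.0213 for Slc1a5 and 0.0427 for Slc1a4, and without Hetz165, at 0.0204 and 0.033. Without the filter on low counts the values were 0.0463 and 0.049.

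The heavy chain Slc3a2 (chromosome 19, 8706882 to 8723369, minus strand) had 26552 to 41905 counts per library, which makes it the gene measured with the least counting error of the 9. It was at 1820, 1602 and 1586 CPM in female KO animals, against 1562, 1597 and 1617 CPM in female Hetz animals. Among males it was at 2603, 2733 and 2404 CPM in KO, against 2098, 2048 and 2378 CPM in Hetz animals. The male groups were separate by a narrow gap.

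Slc3a2 had a log2 fold change of 0.07 in females (-0.24 to 0.37, adjusted p = 0.843) and 0.25 in males (-0.04 to 0.53, adjusted p = 0.49). Its light chain Slc7a5, the carrier LAT1 of leucine and other large neutral amino acids (chromosome 8, 121881150 to 121907694, minus strand), was at 98.4, 80.8 and 80.7 CPM in female KO animals, against 94.4, 90.6 and 100.9 CPM in female Hetz animals. In males Slc7a5 was at 75.5, 97.8 and 70.2 CPM in KO, against 125.1, 96.8 and 106.6 CPM in Hetz animals.

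The groups of Slc7a5 overlapped in both sexes. Its log2 fold change was -0.14 in females (-0.43 to 0.15, adjusted p = 0.629) and -0.43 in males (-0.76 to -0.10, adjusted p = 0.267). Slc7a1, the carrier CAT1 of arginine and lysine that needs no heavy chain (chromosome 5, 148327410 to 148399904, minus strand), was at 369.3, 287.5 and 335.8 CPM in female KO animals, against 262.6, 297.7 and 188.2 CPM in female Hetz animals. In males Slc7a1 was at 199.6, 258.7 and 298.6 CPM in KO, against 264.1, 319.0 and 260.9 CPM in Hetz animals.

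Slc7a1 groups overlapped in both sexes, with log2 fold changes of opposite sign, 0.40 in females (0.02 to 0.79, adjusted p = 0.263) and -0.15 in males (-0.49 to 0.18, adjusted p = 0.76). The female minus the male change was the largest of the 7 genes, at 0.56 (0.04 to 1.09), with an adjusted p of 0.379. By edgeR 0 of the 7 genes passed this test of the difference, 2 had an unadjusted p under 0.05 (background 12.4%) and 0 passed by DESeq2. Over all genes 0.00677% passed.

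Slc38a1 and Slc38a2 lie 44.5 kilobases apart on the minus strand of chromosome 15, with 1 annotated gene, Gm22045, between them. Both encode system A carriers that bring in glutamine, alanine and other small neutral amino acids with sodium. Slc38a1 (SNAT1, 96571418 to 96642913) was at 130.6, 133.6 and 134.8 CPM in female KO animals, against 150.1, 148.0 and 136.5 CPM in female Hetz animals. Its level in males was 155.5, 172.7 and 178.2 CPM in KO, against 201.9, 187.1 and 221.8 CPM in Hetz animals. KO libraries lay below Hetz libraries in both sexes by narrow gaps.

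The log2 fold change of Slc38a1 was -0.13 in females (-0.40 to 0.15, adjusted p = 0.636) and -0.27 in males (-0.54 to 0.00, adjusted p = 0.408). Slc38a2 (SNAT2, 96687392 to 96699730), the member of the pair known to be induced when amino acids run short, was at 1139, 1107 and 1401 CPM in female KO animals, against 887.0, 1107 and 769.5 CPM in female Hetz animals. In males Slc38a2 was at 1161, 873.3 and 1235 CPM in KO, against 1014, 975.9 and 1029 CPM in Hetz animals. Its lowest female KO library and Hetz165 differed only beyond the printed digits.

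For Slc38a2 the log2 fold change was 0.40 in females (0.02 to 0.77, adjusted p = 0.252) and 0.12 in males (-0.20 to 0.44, adjusted p = 0.814). Without Hetz165 the female value was 0.56 with an adjusted p of 0.04. Leaving that animal out also raised the number of genes called in females to 1479, against 319 with it. Of the 7 genes other than Slc1a3 and Slc38a3, 3 had separate KO and Hetz groups in females and 3 in males. Of all genes tested, 22.3% in females and 17.2% in males did. Across the 9 genes the counts were 4 in females and 5 in males. The counts across the 9 include Slc1a3 in both sexes and Slc38a3 in males, which the choice of genes used, so they are a description.

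Several of the 9 genes differed between the sexes. The sexes were counted in separate tables, so sex and table cannot be told apart. In a fit of all 12 libraries, 6 of the 9 genes passed, 1 higher and 5 lower in females, while 27.8% of 14772 genes passed, 13.2% higher and 14.6% lower. Of the 7 genes other than Slc1a3 and Slc38a3, 4 passed, and DESeq2 also called 4. Cell type markers differed too: beside the same 13.2% and 14.6%, 10 of 11 tested myofibre markers were higher in females and 11 of 12 endothelial markers lower, while of 12 satellite cell markers 1 was higher and 5 lower, and their part in the values of the transporters was not tested.

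Slc3a2 fell to 1631 ± 94.4 CPM in females, against 2377 ± 269.7 CPM in males (SD, n = 6 each), a log2 fold change of -0.54 (-0.73 to -0.35, edgeR adjusted p = 0.000286). All 6 female libraries lay below all 6 male libraries, and the same was true of Slc38a1, the other gene of the 9 with separate sexes. Slc38a1 averaged 138.9 ± 8.1 CPM in females and 186.2 ± 23.3 CPM in males (SD, n = 6 each), a log2 fold change of -0.42 (-0.59 to -0.24, edgeR adjusted p = 0.0012). Over all genes, 9.72% had separate sexes.

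The pair at the low end was also lower in females. Slc1a3 averaged 2.54 ± 1.58 CPM in females and 6.14 ± 2.33 CPM in males (SD, n = 6 each), with a log2 fold change of -1.45 (-1.87 to -1.03, edgeR adjusted p = 5.33e-05). Slc38a3 averaged 1.8 ± 1.3 CPM in females and 4.76 ± 2.93 CPM in males (SD, n = 6 each), with a log2 fold change of -1.33 (-1.94 to -0.72, edgeR adjusted p = 0.00256). For both genes the sexes overlapped over all libraries but were separate among KO animals and among Hetz animals, as the values given per library show, and 0 of 6 females lay above the male median. Markers of glial cells differed as well, with 6 of 10 tested lower in females (14.6% of all genes) and 0 higher (13.2%), and their part in the Slc1a3 values was not tested.

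Slc1a4 was the only one of the 9 genes that passed the threshold as higher in females, at 82.9 ± 21.4 CPM, against 60.3 ± 6.96 CPM in males (SD, n = 6 each). Its log2 fold change was 0.43 (0.21 to 0.66, edgeR adjusted p = 0.00629), and 5 of 6 females lay above the male median. Among KO animals the sexes were separate, at 84.6 to 116.1 CPM in females against 60.8 to 65.1 CPM in males. Among Hetz animals they overlapped, at 59.1 to 75.2 CPM in females against 47.6 to 66.9 CPM in males. Slc1a5 averaged 300.9 ± 49.7 CPM in females and 365.8 ± 62.5 CPM in males (SD, n = 6 each), with a log2 fold change of -0.28 (-0.49 to -0.07, edgeR adjusted p = 0.0464). That call is fragile: it was lost without the filter on low counts (adjusted p = 0.0844) and when any of 10 of the 12 libraries was left out (adjusted p = 0.0569 to 0.137). Slc7a1 at 0.11 (adjusted p = 0.561), Slc7a5 at -0.05 (0.752) and Slc38a2 at 0.01 (-0.23 to 0.26, 0.942) did not pass.

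**Figure D3:**
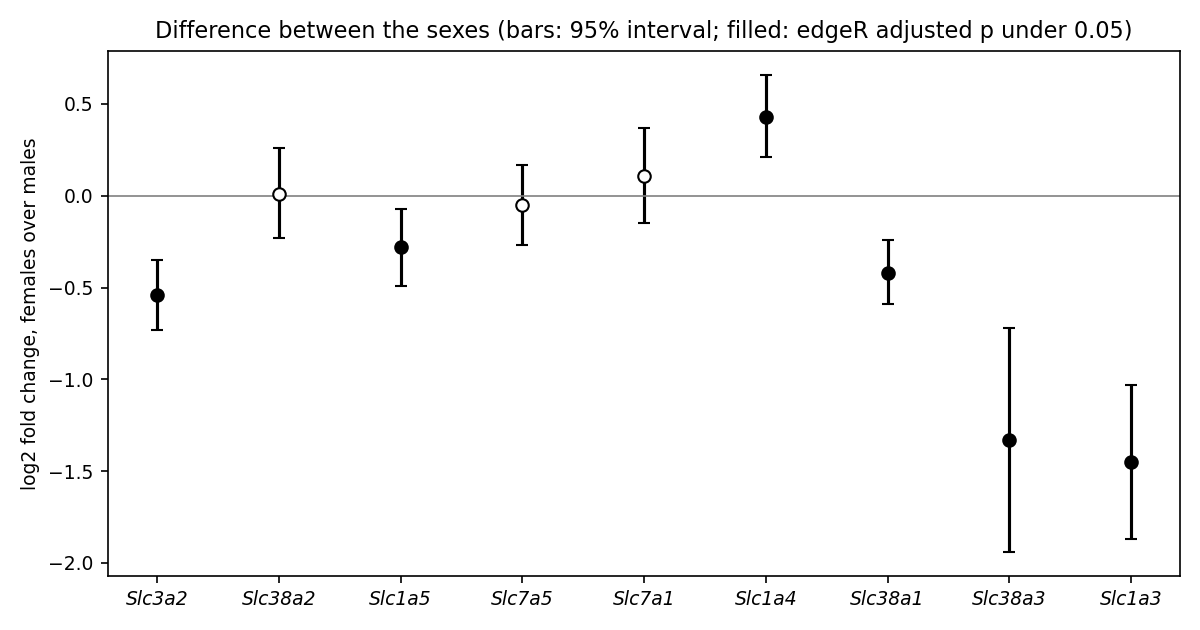
Log2 fold change of the 9 genes in females against males over 12 libraries, from edgeR, with 95% intervals; a positive value is higher in females. Slc1a3, Slc38a3, Slc3a2, Slc38a1 and Slc1a5 lie below 0 and Slc1a4 above 0 with intervals that leave out 0, while the intervals of Slc7a1, Slc7a5 and Slc38a2 include it.

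The heavy chain serves several light chains, whose shares are given here per library without a test. Over Slc7a5, Slc7a6, Slc7a7, Slc7a8, Slc7a10 and Slc7a11, the light chain Slc7a11 (the cystine and glutamate exchanger xCT) took 23.8, 14.9 and 20% of the summed level per kilobase in female KO animals, against 3.55, 1.78 and 3.58% in female Hetz animals. In males its share was 4.14, 5.59 and 1.77% in KO, against 0.597, 0.836 and 0.327% in Hetz animals. The shares were separate between KO and Hetz in both sexes, and female Hetz and male KO animals overlapped. These shares, and the ratios of heavy to light chains below, depend on the annotated exon length of each gene. In CPM Slc7a11 averaged 222.6 in female KO animals, above Slc7a6 at 111.2, Slc7a5 at 86.6 and Slc7a8 at 81.7.

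Slc7a11 itself rose to 222.6 ± 50.9 CPM in female KO, against 29.8 ± 10.4 CPM in female Hetz animals (SD, n = 3 each), 7.47-fold higher (edgeR adjusted p = 0.000106). In males the gene was at 53.3 ± 24.0 CPM in KO, against 9.19 ± 3.42 CPM in Hetz animals (SD, n = 3 each), 5.80-fold higher (edgeR adjusted p = 0.0261), a call lost without KO240 (0.0965) or Hetz204 (0.0627). Slc7a5 made up 24.4 to 31.3% of the light chains in female KO animals, against 33.4 to 40.3% in female Hetz animals, and 16.0 to 26.6% in male KO, against 23.5 to 29.1% in male Hetz animals. Shares of one sum depend on each other, and the larger Slc7a11 share in KO animals lowers those of the rest. The level of Slc7a5 itself did not pass between KO and Hetz in females (edgeR adjusted p = 0.629) or in males (0.267). The summed light chains stayed far below the heavy chain throughout, which exceeded them 5.08- to 6.20-fold in female KO, 5.80- to 6.78-fold in female Hetz, 5.74- to 7.97-fold in male KO and 5.13- to 5.52-fold in male Hetz animals.

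Slc7a8 (LAT2), a carrier of neutral amino acids, had the largest share of the light chains in each male library. It took 12.5 to 30.9% of the light chains in female KO and 16.8 to 30.4% in female Hetz animals, and 36.4 to 54.6% in male KO and 41.4 to 50.7% in male Hetz animals. Slc7a8 fell to 82.2 ± 35.7 CPM in females, against 250.5 ± 57.4 CPM in males (SD, n = 6 each), a log2 fold change of -1.60 (-2.23 to -0.97, edgeR adjusted p = 0.00196). It did not pass between KO and Hetz in females (adjusted p = 0.983) or in males (0.803).

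**Figure D4:**
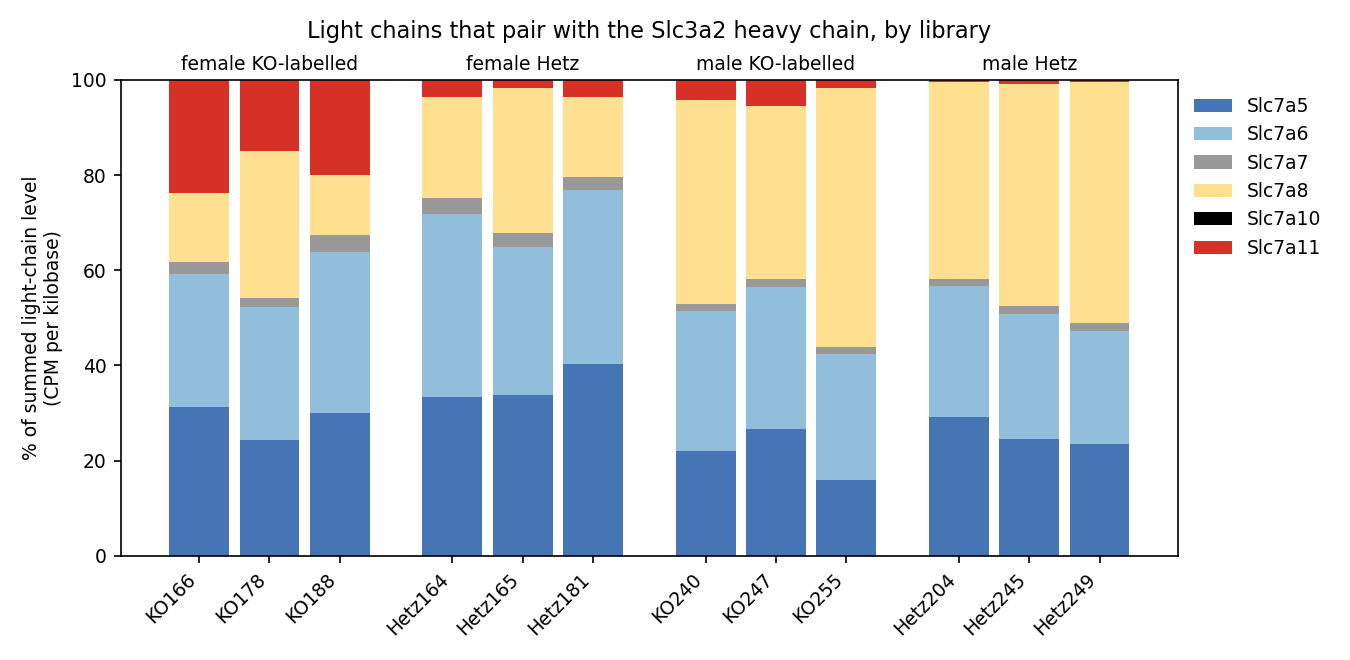
Share of each SLC7 light chain in the summed light-chain level per kilobase, in percent, 1 bar per library, by group; bars add to 100. The Slc7a11 part is widest in the 3 female KO libraries, at 14.9 to 23.8%, and the Slc7a8 part is wider in males than in females.

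Of 34 other amino acid transporters of the plasma membrane, 14 passed the filter in females, of which 1 rose (1.29% of all genes tested rose) and 3 fell (0.983% fell), with a median log2 change of -0.05. In males 15 passed the filter, of which 1 rose (0.704%) and 0 fell (0.157%). Of the 15, 3 had an unadjusted p under 0.05 (12.4% of all genes), and DESeq2 called 1 higher and 1 lower. The gene that rose in both was Slc7a11. Those that fell in females were Slc16a10, Slc38a4 and Slc38a5. Slc38a5 passed the filter only through its female Hetz libraries, so its fall adds no support to the count of 3.

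Slc16a10 (TAT1), a carrier of aromatic amino acids, was at 52.8, 55.1 and 51.5 CPM in female KO animals, against 95.5, 83.0 and 116.2 CPM in female Hetz animals. In males it was at 77.1, 94.9 and 94.0 CPM in KO, against 112.8, 110.3 and 143.9 CPM in Hetz animals. KO and Hetz libraries were separate in both sexes. The log2 fold change was -0.89 in females (adjusted p = 0.00614) and -0.46 in males (adjusted p = 0.206), and the average over both sexes passed at -0.68 (adjusted p = 0.000831).

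Slc38a4 (SNAT4), a system A carrier encoded 295.1 kilobases from Slc38a2 on chromosome 15, was at 4.5, 3.27 and 2.81 CPM in female KO animals, against 8.0, 13 and 7.14 CPM in female Hetz animals. Among males it was at 4.89, 6.04 and 6.44 CPM in KO, against 7.98, 12.8 and 14.1 CPM in Hetz animals. The groups were again separate in both sexes. The log2 fold change was -1.41 in females (adjusted p = 0.0244) and -1.01 in males (adjusted p = 0.0887), with an average of -1.21 (adjusted p = 0.00126). The female call was lost without KO178 (0.0904), KO188 (0.117) or Hetz164 (0.0581).

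Slc38a5 (SNAT5), a system N carrier as Slc38a3 is, had 1, 3 and 0 counts in female KO animals, against 12, 18 and 12 counts in female Hetz animals. Its adjusted p of 0.0493 was lost whichever female library was left out, at 0.0515 to 0.21, and the counts are too few for a firm statement. Only its Hetz libraries reached the filter on low counts, so the filter helped to fix the direction of this fall. Averaged over both sexes, 1 of 16 tested genes of the list rose (2.15% of all genes) and 2 fell (1.27%). For the female minus the male change 0 of 16 passed by edgeR (0.00677% of all genes) and 0 by DESeq2. At an unadjusted p under 0.05 there were 2 of 16 (12.4% of all genes). Between the sexes 2 of 16 rose in females (13.2% of all genes) and 5 fell (14.6%), with a median log2 change of -0.35. Slc7a3 (CAT3), a cationic carrier like Slc7a1, was among those that rose, at 11.6 ± 2.77 CPM in females, against 5.18 ± 0.889 CPM in males (SD, n = 6 each; edgeR adjusted p = 4.99e-05), and all 6 females lay above all 6 males.

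**Figure D5:**
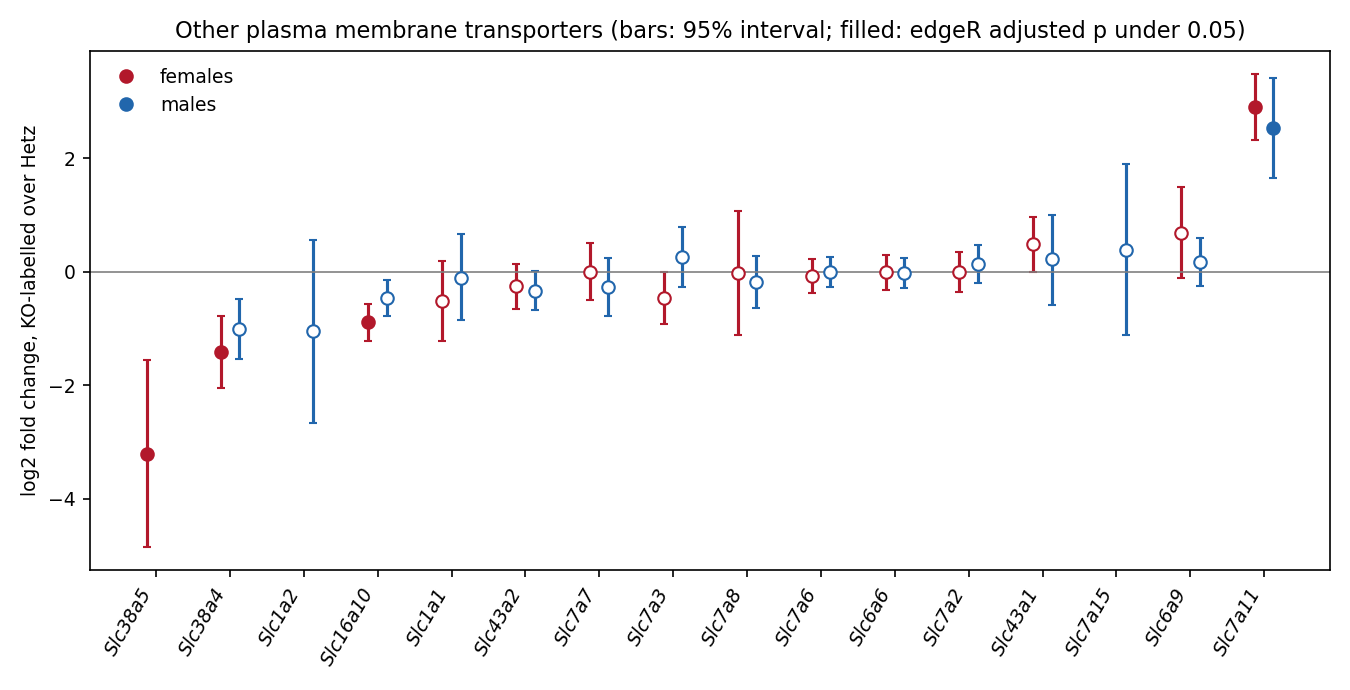
Log2 fold change in KO against Hetz animals of the plasma-membrane amino acid transporters other than the 9 genes, in females and in males, from edgeR, with 95% intervals. Slc7a11 stands at 2.90 in females and 2.54 in males, and Slc16a10 and Slc38a4 lie below 0 in both sexes.

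Carriers of lysosomes and mitochondria move amino acids within the cell. Of these 0 of 16 passed between KO and Hetz by edgeR in females, where 2.27% of all genes did. Of 15 tested in males 0 passed, where 0.861% of all genes did. At an unadjusted p under 0.05 there were 0 in females (17.9% of all genes) and 1 in males (12.4%). DESeq2 called 0 in either sex. Between the sexes Slc38a7 (SNAT7), the lysosomal glutamine exporter, rose to 7.17 ± 1.46 CPM in females, against 3.93 ± 0.91 CPM in males (SD, n = 6 each), with a log2 fold change of 0.87 (edgeR adjusted p = 0.00292). By edgeR 1 of 16 tested passed in that comparison, where 27.8% of all genes did, and DESeq2 called 2.

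Enzymes that use the carried amino acids were followed with 24 tested genes of glutamine, glutamate, aspartate and proline metabolism. In females 0 rose by edgeR (1.29% of all genes) and by DESeq2, and 2 fell (0.983%), while 4 of 24 had an unadjusted p under 0.05 (17.9%). Glul, which makes glutamine from glutamate, fell to 214.3 ± 36.9 CPM in female KO, against 348.5 ± 31.9 CPM in female Hetz animals (SD, n = 3 each; edgeR adjusted p = 0.0347). Prodh, the first enzyme of proline breakdown, fell to 5.56 ± 0.492 CPM in female KO, against 10.9 ± 2.46 CPM in female Hetz animals (SD, n = 3 each; edgeR adjusted p = 0.0468).

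Both calls were unsteady. That of Glul was lost without KO166, KO188, Hetz164 or Hetz181 (adjusted p = 0.0787 to 0.155) and that of Prodh without any female animal but Hetz165 (0.135 to 0.167). In males 0 of 24 passed by edgeR (0.861% of all genes), 2 had an unadjusted p under 0.05 (12.4%), and DESeq2 called 0. Between the sexes 5 of 24 rose in females (13.2% of all genes) and 6 fell (14.6%), among them Glul at 281.4 ± 79.7 CPM in females, against 615.1 ± 148.6 CPM in males (SD, n = 6 each; edgeR adjusted p = 1.73e-05). Averaged over both sexes Ass1, the argininosuccinate synthase that helps to remake arginine, rose (log2 0.47, adjusted p = 0.0209) and Prodh fell (-0.57, adjusted p = 0.0233), and each of these was lost when single libraries were left out (0.0517 to 0.0642 for Ass1 and 0.051 to 0.069 for Prodh).

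Sensing of amino acids at mTORC1, the growth kinase that lysosomal carriers and RAG GTPases switch on, was followed with 35 tested genes. In females 0 passed by edgeR (2.27% of all genes), 5 had an unadjusted p under 0.05 (17.9%), and DESeq2 called 0. Without Hetz165 there were 4 higher and 4 lower, while the genes called in the whole comparison went from 319 to 1479. Without the filter on low counts there was 1 higher, with 1000 genes called in all. In males 1 rose (0.704%), Rraga, which encodes the GTPase RagA, at 112.2, 144.7 and 127.6 CPM in KO, against 64.6, 82.0 and 79.7 CPM in Hetz animals (log2 0.77, adjusted p = 0.0259). In females Rraga was at 86.8 ± 10.5 CPM in KO and 81.5 ± 8.39 CPM in Hetz animals (SD, n = 3 each), and the male call was lost without any of 4 animals, namely KO240, Hetz204, Hetz245 and Hetz249 (adjusted p = 0.071 to 0.198).

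ATF4, a factor known to induce several of the 9 genes when amino acids are scarce, was followed with 26 tested genes of its response. In females 0 rose by edgeR (1.29% of all genes), 4 had an unadjusted p under 0.05 in either direction (17.9%), and 1 fell (0.983%), Ppp1r15a, the phosphatase subunit GADD34, at 906.3, 900.2 and 798.5 CPM in KO, against 1503, 1438 and 1827 CPM in Hetz animals (log2 -0.87, adjusted p = 0.00765, lost at 0.071 without KO188). The count of higher genes was 1 by DESeq2, 1 without the filter, 1 in a fit of all 12 libraries and 3 without Hetz165. Over all genes 723 were called by DESeq2, 1000 without the filter and 1479 without Hetz165, against 319. In males 0 of 26 passed by edgeR (0.861% of all genes), 5 had an unadjusted p under 0.05 (12.4%), and DESeq2 called 0. Genes of immediate early and dissociation stress responses summed to 16129 to 16739 CPM in female KO, against 19563 to 23027 CPM in female Hetz animals. They also respond to the isolation of cells. In females 6 of these 22 genes fell by edgeR (0.983% of all genes) and 8 by DESeq2, while 0 rose by either. Of the 22, 12 had an unadjusted p under 0.05 (17.9% of all genes). Btg2, Ier2, Dusp1 and Dnajb1 had the smallest p among those that fell, and the part of these genes in the other female values was not tested. The call of Ier2 was lost without KO178 or KO188 (adjusted p = 0.0601 and 0.0628), that of Dusp1 without KO166, KO178, KO188 or Hetz164 (0.0515 to 0.0769) and that of Dnajb1 without KO166, KO178, KO188 or Hetz181 (0.0693 to 0.113). In males 0 of 22 passed by edgeR (0.861% of all genes), 3 had an unadjusted p under 0.05 (12.4%), and DESeq2 called 0.

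Between the sexes the same response genes went both ways, with 6 of 26 higher (13.2% of all genes) and 6 lower (14.6%) in females. Asns, which makes asparagine, was at 56.9 to 96.3 CPM over the 6 female libraries, against 20.7 to 43.1 CPM over the 6 male ones (log2 1.19, adjusted p = 1.88e-05). Chac1, which breaks down glutathione, was at 58.4 to 75.5 CPM in females, against 114.5 to 177.3 CPM in males (log2 -1.12, adjusted p = 1.69e-06). The groups were separate for both genes, and in opposite directions.

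Among 14763 genes, Slc38a4 was nearest in pattern to Slc1a3, measured as the root mean square difference of log2 CPM over the 12 libraries after the mean of each table was taken off. That difference was 0.264 for Slc38a4, 0.284 for Timp3 and 0.313 for Clstn3, against a root mean square of 0.683 for Slc1a3 itself. Timp3, an inhibitor of metalloproteinases, shares 21.3% of its exonic bases with another gene model and its count is uncertain. Clstn3, a calsyntenin, averaged 6.1 ± 0.706 CPM in female KO, 14.4 ± 1.76 in female Hetz, 23.0 ± 5.13 in male KO and 35.3 ± 6.95 in male Hetz animals (SD, n = 3 each).

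Nearest to Slc38a3 were Vat1l at 0.407, Mirg at 0.414 and Gfra1 at 0.463, against a root mean square of 0.829 for Slc38a3 itself. Gfra1, a receptor of the growth factor GDNF, averaged 26.1 ± 2.23 CPM in female KO, 54.1 ± 6.06 in female Hetz, 36.1 ± 1.74 in male KO and 67.1 ± 15 in male Hetz animals (SD, n = 3 each). Mirg, a noncoding RNA of the imprinted Dlk1-Meg3 region, averaged 4.42 ± 1.33 CPM in female KO, 8.83 ± 1.74 in female Hetz, 7.24 ± 1.11 in male KO and 14.4 ± 2.41 in male Hetz animals (SD, n = 3 each). Timp3, Clstn3, Vat1l, Mirg and Gfra1 were found through their likeness to Slc1a3 and Slc38a3, so their KO and Hetz values are a description.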

How the data were processed

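RNA of 12 satellite cell samples was measured by Smart-Seq2 without molecular identifiers. The deposited files hold whole fragment counts for each Ensembl gene (GRCm38, release 99), made per the file headers with featureCounts 2.0.0 over exons, without strand and without reads that map to several places. Nothing had to be rounded, since no deposited column holds estimated counts. Per the submitters' processing notes, reads were aligned with STAR to mm10. Exons of the 9 genes overlap no other gene model. The tables held 0 columns of other samples.

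Depth ran from 13042039 to 19273245 counts per library, and a gene with 0 counts is bounded by 3 counts, 0.144 to 0.237 CPM, which covers counting error only. CPM were computed with TMM factors over the 12 libraries and divided by exon length for CPM per kilobase. Tests used edgeR 4.0.16 in R 4.3.3 (glmQLFit, robust, filterByExpr with a minimum count of 10, adjusted p under 0.05 over all genes tested), within each table for KO against Hetz and over 12 libraries with 4 group means otherwise. The script was tested on simulated data. Alternatives were DESeq2 1.42.0, its size factors in edgeR, no filter, library totals alone, a fit of all 12 libraries and leaving out each library.

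The members and lists were chosen with earlier results of these data known. All 9 genes are named in every comparison. From each gene list other than cell type markers, up to 4 genes per direction with the smallest p among those called are eligible to be named. For Slc1a3 and Slc38a3 the 3 genes nearest in log2 CPM (prior count 2) are named. Sequences are from RefSeq, GRCm38.p6, where 5 of the 9 genes had a promoter.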

Additional observations from a re-analysis of the deposited data

How the results depend on the processing

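The number of genes called, and with it each adjusted p, moved with the processing. In females 319 genes passed, against 1000 without the filter, 723 with DESeq2 and 144 to 1479 when 1 library was left out, 1479 without Hetz165 and 144 without KO188. In males 115 passed, against 375, 280 and 41 to 294, with 294 without KO255 and 41 without KO240. Leaving out any library of either sex moved that sex's count by over 1.5 times. In the average over both sexes 504 passed, against 858, 843 and 318 to 931, with 931 without Hetz165, 318 without KO188, 325 without KO240 and 332 without Hetz249. For the female minus the male change 1 gene passed, against 358, 238 and 0 to 206, with 206 without Hetz165. The cause was not tested. Between the sexes 4110 genes passed, and no alternative moved that count by 1.5 times. Of the 7 genes tested between KO and Hetz animals, the count in females was 0, against 1 without the filter, 1 with DESeq2, 1 in a fit of all 12 libraries and 0 to 2 when a library was left out. In the average it was 0, against 2, 2 and 0 to 2. No value changed sign past the threshold, and of the KO and Hetz values of the 7 genes under all alternatives 11 came to pass it. Levels moved by less than 1 SD in 67 of 72 comparisons, and the other 5 came from scaling by library totals alone. Slc1a3 and Slc38a3 had the fewest counts of the 9 genes, which limits their precision. No paired analysis was possible because the labels share no replicate number between groups.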
